A study of Homo sapiens with 12 samples.

Results

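PCK1 and 9 other genes of the fasting programme of gluconeogenesis were followed in HepG2 cells, a line from a human liver cancer, and in Ls174 cells, a line from a human colon cancer, with and without an extract of the red alga Hypnea musciformis (HME). The genes were chosen by name: PCK1, PCK2, G6PC and FBP1 as enzymes, PPARGC1A, FOXO1 and CREB3L3 as regulators, IRS1 and IRS2 as insulin receptor adaptors and IGFBP1 as a secreted product. They are 10 of 57736 genes in the count tables, and for each the counts of all its 3′ regions were summed. There were 4 groups with 3 biological replicates each: untreated HepG2 cells (HepG2 control), HepG2 cells given HME for 24 h (HepG2 HME), untreated Ls174 cells (Ls174 control) and Ls174 cells given HME for 24 h (Ls174 HME), with HME at 0.7 mg/ml by the sample labels. Each line is a single established tumour line, so the replicates are cultures and not donors. The names were picked with the effect of HME on these libraries already known, so the values of the members under HME are a description, and their adjusted p-values are not independent evidence that they changed.

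Gluconeogenesis builds glucose from lactate, amino acids and glycerol, and in the body it runs mainly in the liver, with smaller parts in kidney and small intestine. During fasting, glucagon acts through cAMP and CREB, glucocorticoids act through their receptor, and low insulin frees the factor FOXO1 from AKT, and these inputs meet on the genes of the rate-controlling enzymes. Insulin acts in the opposite direction through IRS1 and IRS2, which dock PI3K to the activated insulin receptor.

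Reads were taken from the 3′ end of polyadenylated transcripts, so that a longer transcript does not give more of them, and the libraries held 1790841 to 3656662 counts. Levels are given as normalized counts (CPM), scaled to a common library size by TMM over all 12 libraries, and 3 counts in a library, taken as the floor of the measurement, correspond to 0.768 to 1.87 CPM. Fold changes under HME come from edgeR's quasi-likelihood fit of the 6 libraries of a line, with Benjamini-Hochberg adjustment over all tested genes. HepG2 control 2 lay at a distance of 49.3 and 49.7 from controls 1 and 3, which were 24.4 apart, and Ls174 control 1 lay at 72.6 and 75.1 from controls 2 and 3, which were 16.6 apart (Euclidean, log2 CPM of the 500 most variable genes of the line). Many results of named genes that moved without these libraries are given both ways. Over all genes, 921 had an adjusted p under 0.05 in HepG2 cells without control 2 and 375 with it. In Ls174 cells the numbers were 979 without control 1 and 134 with it. When 1 of the other libraries was left out, the number was 95 to 248 in HepG2 cells. In Ls174 cells it was 2 without control 2, 10 without control 3 and 0 without HME 1, HME 2 or HME 3. All 10 hepatocyte markers checked were above the floor in HepG2 cells, with a summed level of 19796 to 22555 CPM in control and 13717 to 14511 CPM in HME libraries, against 37.9 to 194 CPM in Ls174 cells, where all 10 were above the floor in control and 8 in HME libraries. Of 10 intestinal markers, 9 were above the floor in Ls174 cells in either condition, with sums of 404 to 451 CPM in control and 289 to 357 CPM in HME libraries. In HepG2 cells 3 of them were above the floor in control and 4 in HME libraries, with sums of 70.4 to 217 CPM and 112 to 137 CPM, and GPA33, MUC2 and REG4 were at 0. The part of the lower marker sums in the results on HME was not tested. Each library is bulk RNA of 1 line, where fewer cells with the marker RNA cannot be told apart from less of it per cell. HepG2 HME 2 alone held 964 CPM of 7 mesenchymal markers, of which 5 were above the floor and DCN was at 0 in HepG2 HME cells, against 4.03 to 12.01 CPM in the other HepG2 libraries.

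The promoters of 8 of the 10 genes were matched in a RefSeq table of build GRCh38.p14, and PCK1 and IGFBP1 were not matched. The 250 bases before the start site are shown for both insulin receptor adaptors, whose levels differ in opposite directions between the lines, and for CREB3L3. Capitals mark matches to TGTTTTG on either strand, the core of an insulin response sequence, which 4.3% of all 35116 promoters of this length hold.
IRS1: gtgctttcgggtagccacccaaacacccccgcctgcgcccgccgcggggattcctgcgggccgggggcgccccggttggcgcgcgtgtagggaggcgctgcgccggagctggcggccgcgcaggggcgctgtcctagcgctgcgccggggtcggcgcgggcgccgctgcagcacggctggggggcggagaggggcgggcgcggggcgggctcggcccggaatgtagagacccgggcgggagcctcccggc
IRS2: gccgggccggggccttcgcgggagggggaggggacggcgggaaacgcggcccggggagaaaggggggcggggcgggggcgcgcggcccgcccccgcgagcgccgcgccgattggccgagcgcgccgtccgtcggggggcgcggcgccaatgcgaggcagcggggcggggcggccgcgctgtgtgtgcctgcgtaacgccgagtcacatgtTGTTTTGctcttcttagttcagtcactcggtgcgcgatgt
CREB3L3: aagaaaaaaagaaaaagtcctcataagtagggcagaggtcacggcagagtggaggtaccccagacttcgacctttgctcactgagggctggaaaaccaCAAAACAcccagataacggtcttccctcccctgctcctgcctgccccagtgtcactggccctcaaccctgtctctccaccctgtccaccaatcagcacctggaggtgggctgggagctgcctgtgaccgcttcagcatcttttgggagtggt
IRS1 lies on the minus strand at chr2:226799821-226800070 and holds no match. IRS2 lies on the minus strand at chr13:109786584-109786833 with its match at bases -40 to -34 from the start site. CREB3L3 lies on the plus strand at chr19:4153381-4153630 and matches on the opposite strand at bases -152 to -146. Of the other motifs searched, TGACG on either strand (the core of a cAMP response element, in 21.2% of promoters) was found upstream of PPARGC1A, TATAAA on the sense strand (a TATA box, in 6.8%) upstream of G6PC, and TGTTTAC on either strand (a forkhead site, in 2.98%) upstream of none of the 8. PPARGC1A has 2 listed promoters. Its match lies in that at chr4:24472906-24473155, and that at chr4:23881102-23881351 has none. These matches describe letters in a window, not bound sites.

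PCK1 encodes the cytosolic phosphoenolpyruvate carboxykinase, which makes phosphoenolpyruvate from oxaloacetate. Nearly all counts of the gene (ENSG00000124253; 99.9%) fell in 1 region on chromosome 20 (build GRCh37, chr20:56140861-56141710), which lies wholly in its 3′ UTR. In HepG2 cells, PCK1 stood at 10.8, 3.74 and 10.9 CPM in control 1, 2 and 3 and at 84.7, 145 and 174 CPM in HME 1, 2 and 3. Every HME library was far above every control library. The log2 fold change was 3.97 (SE 0.47, adjusted p = 0.00251), which is 15.7-fold, and without HepG2 control 2 it was 3.697.

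In Ls174 cells, PCK1 started higher, at 64.9, 205 and 185 CPM in control 1, 2 and 3, and reached 709, 382 and 394 CPM in HME 1, 2 and 3. The groups did not overlap, and the control library that stood apart was the lowest. The log2 fold change was 1.70 (SE 0.43, adjusted p = 0.125), and without Ls174 control 1 it was 1.35 with an adjusted p of 0.00228. The adjusted p stayed above 0.05 when any 1 of the other Ls174 libraries was left out, reaching 0.398 without HME 2. By mean CPM the order of the groups was HepG2 control (8.47 ± 4.10, SD, n = 3), HepG2 HME (135 ± 45.6), Ls174 control (151 ± 75.7) and Ls174 HME (495 ± 186). HepG2 HME and Ls174 control, neighbours in this order, overlapped through Ls174 control 1 alone, the library that stood apart. Without it, all 3 HepG2 HME libraries lay below both other Ls174 controls.

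PCK2, the mitochondrial form of the same enzyme, is encoded by ENSG00000100889 on chromosome 14. Most of its counts (94.1%) fell at chr14:24572932-24573536 (GRCh37), which covers the end of the coding sequence and part of the 3′ UTR. In HepG2 cells it stood at 80.7, 14.3 and 88.1 CPM without HME and at 82.7, 74.9 and 43.8 CPM with it. These groups overlapped, and the log2 fold change of 0.17 (SE 0.55) turned to -0.25 without HepG2 control 2, where PCK2 was lowest. In Ls174 cells PCK2 stood at 17.7, 34.8 and 36.9 CPM in the controls and at 86.7, 97.1 and 83.5 CPM with HME. All HME libraries were above all controls, and the log2 fold change was 1.56 (SE 0.28, adjusted p = 0.0392). When any 1 of the other 5 Ls174 libraries than control 1 was left out the adjusted p passed 0.05, reaching 0.286 without HME 2, while the log2 fold change stayed between 1.32 and 1.74.

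The share of PCK1 in the counts of both carboxykinases compares libraries without any scaling. It was 11.8%, 20.7% and 11% in HepG2 control 1, 2 and 3 and 50.6%, 65.9% and 79.9% in HepG2 HME 1, 2 and 3. Only 29 counts lie behind the value of HepG2 control 2, whose exact (Clopper-Pearson) 95% interval runs from 7.99% to 39.7%. In Ls174 cells the share was 78.6% to 85.5% in control and 79.7% to 89.1% in HME libraries. The Ls174 groups overlapped, while in HepG2 cells the lowest HME share was above the upper limit of every control interval. Without molecular identifiers on the reads, these intervals cover the error of counting alone.

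**Figure D1:**
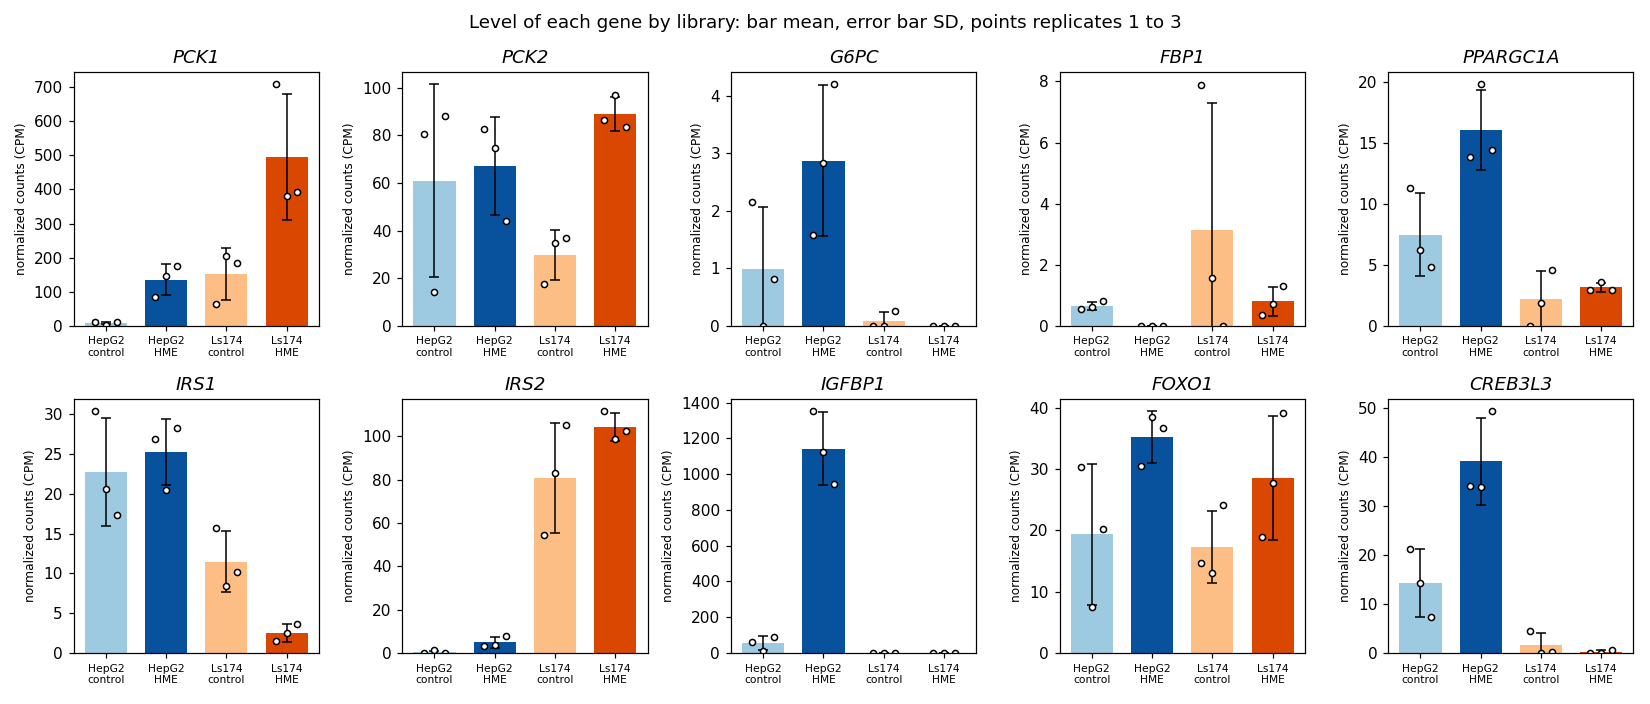
Level of the 10 genes in TMM-normalized CPM (y axes from 0, one scale per gene) in the 4 groups on the x axes, with bars at the mean, error bars of 1 SD (cut at 0) and a point for each replicate. PCK1 and IGFBP1 stand far above their controls in all 3 HepG2 HME libraries, IRS2 is at most 7.81 CPM in HepG2 and between 54.6 and 111 CPM in Ls174 libraries, and G6PC and FBP1 stay under 8 CPM in all 12 libraries.

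G6PC, the catalytic subunit of glucose-6-phosphatase that releases free glucose, and FBP1, the liver fructose-1,6-bisphosphatase, were close to the floor. G6PC had 8, 0 and 2 counts in HepG2 control 1, 2 and 3 and 4, 8 and 7 counts in HepG2 HME 1, 2 and 3, and 1 count over all 6 Ls174 libraries. The HepG2 groups overlapped, and the ratio of the summed counts, adjusted for library size, was 2.11 with an exact 95% counting interval from 0.934 to 5.08. FBP1 had 2, 1 and 2 counts in the HepG2 controls and 0 in each HepG2 HME library, both at the floor. In Ls174 cells FBP1 had 16, 5 and 0 counts in control and 1, 2 and 4 in HME libraries, and most of the control sum came from the library that stood apart. Neither gene passed edgeR's filter on low counts, so neither was tested for a change, and at this depth only a large one could be seen.

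Among the regulators, PPARGC1A, a coactivator that joins CREB and FOXO1 on gluconeogenic genes, stood at 11.3, 6.23 and 4.85 CPM in HepG2 control 1, 2 and 3 and at 13.8, 19.8 and 14.4 CPM in HepG2 HME 1, 2 and 3. The groups did not overlap but came close, and the log2 fold change was 1.09 (SE 0.42, adjusted p = 0.174). Ls174 libraries held 0, 6 and 18 counts of it in control and 8, 10 and 9 with HME, which overlapped, and it was not tested.

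CREB3L3 encodes a membrane-bound transcription factor of liver and small intestine that is released by proteolysis during fasting. It stood at 21.2, 14.3 and 7.27 CPM in HepG2 control 1, 2 and 3 and at 34.0, 33.9 and 49.2 CPM in HepG2 HME 1, 2 and 3. The HME libraries were all higher, and the log2 fold change was 1.44 (SE 0.42, adjusted p = 0.0921). DESeq2 and edgeR's exact test put it under an adjusted p of 0.05. Ls174 libraries held 9, 0 and 1 counts of it without HME and 0, 0 and 2 with it.

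FOXO1, the forkhead factor that AKT keeps out of the nucleus, stood at 30.4, 7.48 and 20.2 CPM in HepG2 control 1, 2 and 3 and at 30.5, 38.5 and 36.6 CPM in HepG2 HME 1, 2 and 3. The highest control and the lowest HME library were almost level, and the log2 fold change was 0.86 (SE 0.43, adjusted p = 0.273), or 0.53 without HepG2 control 2. In Ls174 cells it stood at 14.8, 13.0 and 24.1 CPM in control and at 18.9, 27.7 and 39.1 CPM in HME libraries. These groups overlapped (log2 fold change 0.71, SE 0.36, adjusted p = 0.423).

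The adaptors of the insulin receptor carry its signal to PI3K. IRS1 (ENSG00000169047) stood at 30.4, 20.6 and 17.4 CPM in HepG2 control 1, 2 and 3 and at 26.9, 20.5 and 28.2 CPM in HepG2 HME 1, 2 and 3, and the groups overlapped (log2 fold change 0.15, SE 0.34). In Ls174 cells IRS1 stood at 15.7, 8.38 and 10.2 CPM in control 1, 2 and 3 and at 1.46, 2.49 and 3.62 CPM in HME 1, 2 and 3. Every Ls174 HME library was below every control, and the log2 fold change was -2.15 (SE 0.50, adjusted p = 0.101), and without Ls174 control 1 it was -1.85 with an adjusted p of 0.0163. The adjusted p stayed above 0.05 when any 1 of the other Ls174 libraries was left out, reaching 0.476 without HME 2. Of the counts of IRS1, 87.2% fell in its 3′ UTR and 12.6% in a region of 197 bases that lies in an intron of the gene (GRCh37, chr2:227656657-227656853).

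IRS2 (ENSG00000185950) was counted in 1 region of its 3′ UTR (GRCh37, chr13:110405987-110408650). It was at the floor in HepG2 controls, with 0, 2 and 0 counts, and had 8, 11 and 13 counts in HepG2 HME 1, 2 and 3. No control reached an HME library, and the ratio of the summed counts was 17.8, with an exact 95% counting interval from 4.53 to 153. It did not pass the filter in the HepG2 fit. It entered the fit of all 12 libraries only through its level in Ls174 cells, so no p-value of that fit is used for HepG2 cells. The log2 fold change of IRS2 in HepG2 cells was 3.94 (SE 0.82) there, from the same few counts. In Ls174 cells IRS2 stood at 54.6, 82.9 and 105 CPM in control and at 111, 98.9 and 102 CPM in HME libraries, which overlapped (log2 fold change 0.36, SE 0.25, adjusted p = 0.555).

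Taken as a share of the counts of both adaptors, IRS2 made up 0%, 5.71% and 0% in HepG2 control 1, 2 and 3 and 10.5%, 15.9% and 21.7% in HepG2 HME 1, 2 and 3. The exact 95% upper limits of HepG2 control 1, 2 and 3 were 3.21%, 19.2% and 8.22%, so that the shares of HepG2 HME 1 and 2 lay within the interval of control 2. In Ls174 cells the share was 77.6%, 90.8% and 91.1% in control and 98.7%, 97.5% and 96.6% in HME libraries. In both lines every HME library had a larger share of IRS2 than every control library, with the values moving in HepG2 through IRS2 and in Ls174 mainly through IRS1.

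**Figure D2:**
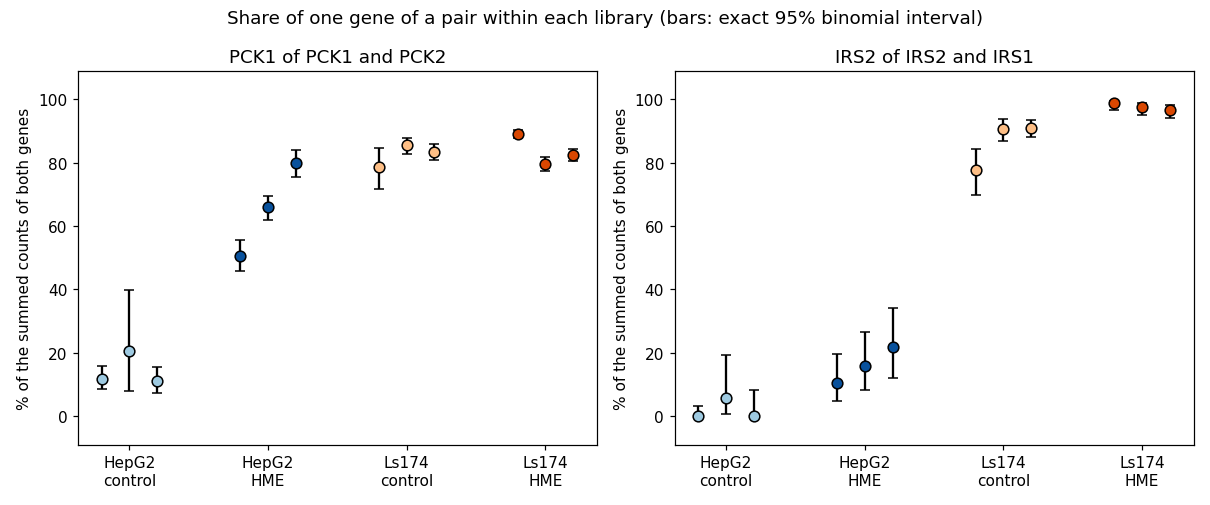
Share of PCK1 in the summed counts of PCK1 and PCK2 (left) and of IRS2 in the summed counts of IRS2 and IRS1 (right), in percent on the y axes, with a point for each replicate of the 4 groups and exact 95% binomial intervals. In HepG2 cells the PCK1 share runs from 11% to 20.7% in control and from 50.6% to 79.9% in HME libraries, and the IRS2 share is higher with HME in both lines.

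IGFBP1, a secreted binding protein of insulin-like growth factors whose gene insulin represses in liver, had the largest fold change of the tested members in HepG2 cells. All its counts (ENSG00000146678) fell at chr7:45932691-45933464 (GRCh37), at the end of its 3′ UTR. It stood at 63.5, 13.1 and 88.9 CPM in HepG2 control 1, 2 and 3 and at 1352, 1126 and 945 CPM in HepG2 HME 1, 2 and 3. Every HME library was far above every control, and the log2 fold change was 4.401 (SE 0.61, adjusted p = 0.00527), or 3.98 without HepG2 control 2. Among Ls174 libraries, it had 5 counts in control 3 and 0 in the other 5 libraries.

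In HepG2 cells, 7 of the 10 genes passed the filter on low counts, and 2 of them (PCK1 and IGFBP1) were higher with an adjusted p under 0.05, where 2.77% of all 11343 tested genes were. At the thresholds of the study (an unadjusted p under 0.05 and a change of over 0.58 on the log2 scale), PCK1, PPARGC1A, IGFBP1 and CREB3L3 passed, all 4 higher with HME, against 11.3% of all tested genes. All HME libraries were above all controls for these 4 and FOXO1, against 15.5% of tested genes. In Ls174 cells 5 genes were tested and 1 of them (PCK2) was higher with an adjusted p under 0.05, against 0.318% of 11319 genes. PCK1 and PCK2 were higher at the thresholds of the study, against 4.11% of tested genes, and IRS1 lower, against 7.85%, and these 3 had groups that did not overlap, against 23.8%. Nothing is read from these shares, since the choice of the genes used the same comparisons.

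**Figure D3:**
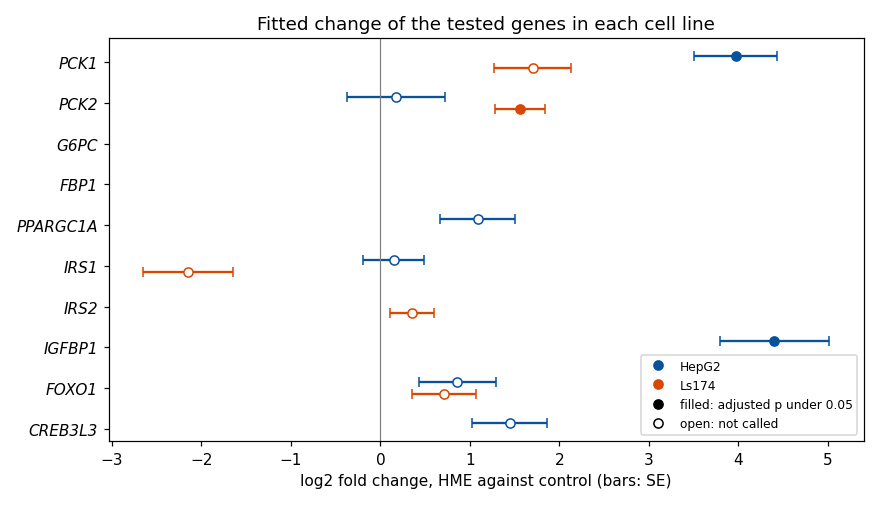
Log2 fold change of HME against control (x axis) with its SE for the members tested in HepG2 (blue) and Ls174 cells (orange), filled where the adjusted p was under 0.05. PCK1 at 3.97 and IGFBP1 at 4.401 in HepG2 and PCK2 at 1.56 in Ls174 cells are filled, IRS1 in Ls174 cells lies at -2.15, and G6PC and FBP1 were tested in neither line.

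Whether HME moved a gene differently in the 2 lines was asked by the interaction in a fit of all 12 libraries, for the 8 members that passed its filter. By edgeR, 0 of the 8 had an adjusted p under 0.05, where 0.644% of 13040 genes did, and 5 had an unadjusted p under 0.05. Those 5, all with the higher log2 fold change in HepG2, were PCK1, IRS1, IRS2, IGFBP1 and CREB3L3, and 7.42% of all genes passed the thresholds of the study in that direction. Of these, IGFBP1 and CREB3L3 passed the filter only through HepG2 cells and IRS2 only through Ls174 cells. Their differences are set against a line with few or no counts. Nothing is read from the count, since the genes were chosen with earlier results known. DESeq2 put 4 members (PCK1, IRS1, IRS2 and IGFBP1) under an adjusted p of 0.05, and 368 of 27235 genes. IRS2 and IGFBP1 are again set against a line with few counts.

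For PCK1 the log2 fold change in HepG2 exceeded that in Ls174 by 2.23 (SE 0.66, adjusted p = 0.159). Without both control libraries that stood apart, a choice made after the data were seen, the difference was 2.26 (SE 0.47, adjusted p = 0.0194), and without Ls174 control 1 alone it was 2.58 (adjusted p = 0.0464). The adjusted p stayed above 0.05 when any 1 other library was left out, reaching 0.3685 without Ls174 HME 2. For IRS1 it was 2.26 (SE 0.56, adjusted p = 0.0897) and for IRS2 3.58 (SE 0.93), the latter resting on 2 counts in HepG2 control 2, without which HepG2 controls had 0 counts and the fitted value, which then depends on the prior count and is no bound, was 6.39. PCK2 went the other way, with a difference of -1.44 (SE 0.69, adjusted p = 0.39), and -1.65 (SE 0.34, adjusted p = 0.0194) without the 2 control libraries. The values of IGFBP1 and CREB3L3 here depend on a few counts in Ls174 cells.

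The untreated lines were also compared for these genes, as a description, since the genes were chosen with earlier results of these data known. IRS2 passed the filter only through Ls174 cells, and IGFBP1 and CREB3L3 only through HepG2 cells, so their p-values between the lines are not used. In the fit of all 12 libraries, 5 of 8 tested members had an adjusted p under 0.05 between HepG2 and Ls174 controls, where 35.5% of 13040 genes did. IRS2, IGFBP1 and CREB3L3 are among the 5, with PCK1 and IRS1, and nothing is read from the count. The number was 3 with only the 6 control libraries fitted (PCK1, IRS2 and IGFBP1), and 1 of 5 tested (PCK1) with at least 10 counts in each group. PCK1 was lower in HepG2 cells, with a log2 difference of -4.11 (SE 0.52, adjusted p = 2.55e-05), and so was IRS2, with 2 summed counts against 789 and a ratio of 0.00298 (exact 95% counting interval 0.00036 to 0.0108). IGFBP1 was higher in HepG2 cells by 6.60 (SE 0.87), CREB3L3 by 3.51 (SE 0.85) and IRS1 by 1.02 (SE 0.37, adjusted p = 0.0437) on the log2 scale. Without Ls174 control 1, CREB3L3 was higher by 6.29, and the value of IGFBP1 rests on 5 counts in Ls174 control 3, without which Ls174 cells had 0 counts and the fitted value, again no bound, was 10.2. IRS1 lost its call under several settings, among them scaling by library size alone (adjusted p = 0.101) and the 6 control libraries alone (adjusted p = 0.119), and without HepG2 control 1, HepG2 HME 3, Ls174 control 2, Ls174 control 3 or Ls174 HME 2, reaching 0.158 without Ls174 control 2. PPARGC1A differed by 1.66 (SE 0.66, adjusted p = 0.0623), by 2.77 (adjusted p = 0.0137) without Ls174 control 3 and by 1.36 (adjusted p = 0.0435) without both control libraries that stood apart, and DESeq2 gave an adjusted p of 0.0278. PCK2 differed by 1.04 (SE 0.49, adjusted p = 0.12) and FOXO1 by 0.19 (SE 0.43, adjusted p = 0.77). PCK2 passed without HepG2 control 2 (1.52, adjusted p = 0.00204), and its adjusted p reached 0.3555 without HepG2 control 3. That of PPARGC1A reached 0.21 without HepG2 control 1.

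The other genes of the pathway were counted in 8 lists, which were chosen with earlier results of these data known. The adjusted p-values of their genes are therefore not independent evidence. For HME against control in HepG2 cells, 9 genes of the lists reached an adjusted p under 0.05. PDK4 stands in 2 of the lists. Of all tested genes, in either direction, 3.31% passed by adjusted p and 22.2% at the unadjusted thresholds of the study in HepG2 cells, and 1.18% and 12% in Ls174 cells. The lists were not tested against these shares. In the cAMP and CREB arm, 18 of 25 genes were tested in HepG2 cells, 2 rose and 0 fell, and 7 passed the unadjusted thresholds of the study, with a median log2 fold change of 0.44 against -0.04 over all tested genes. Those that rose were NR4A1, an orphan nuclear receptor and immediate target of CREB, from 1.46 ± 0.78 to 34.3 ± 21.3 CPM (log2 fold change 4.39, SE 0.59, adjusted p = 0.00456) and CREM, a CREB-related factor that includes the repressor ICER, from 8.43 ± 5.70 to 39.1 ± 7.46 CPM (2.18, SE 0.51, adjusted p = 0.04997). NR4A1 kept an adjusted p under 0.05 when each of the 6 libraries was left out in turn, and CREM kept it in 1 of the 6 fits, that without control 2, reaching 0.165 without HME 3, and in 5 of 9 other settings. In Ls174 cells 0 of 18 genes of this arm passed by edgeR, 1 (ADCY3, lower) at the unadjusted thresholds, and the list median was 0.02. Without Ls174 control 1, ADCY3 had a log2 fold change of -1.14 (adjusted p = 0.039), while without Ls174 HME 2 its adjusted p was 0.615.

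In the insulin receptor, PI3K and AKT arm, 2 of 19 tested genes rose in HepG2 cells and 0 fell, 3 passed the unadjusted thresholds, and the median was 0.03. GRB10, an adaptor that binds and restrains the insulin receptor, went from 12.7 ± 5.17 to 49.4 ± 5.39 CPM (log2 fold change 1.95, SE 0.36, adjusted p = 0.0197). TRIB3, a pseudokinase that binds AKT and an ATF4 target, went from 152 ± 18.8 to 392 ± 18.5 CPM (1.37, SE 0.29, adjusted p = 0.0343). With 1 of the 6 libraries left out, GRB10 kept an adjusted p under 0.05 in 2 fits, those without control 1 or control 2, and TRIB3 in 1, that without control 2. Their highest values were 0.0943 and 0.16, both without HME 3. TRIB3 also lost its call with library size only (0.0626) and with the replicate number as a block (0.0945). In Ls174 cells 0 of 18 passed, TRIB3 with a log2 fold change of 1.12 (adjusted p = 0.0876) and IGF1R with -1.33 (adjusted p = 0.25) were past the unadjusted thresholds, and the median was -0.22 against -0.003 over all tested genes. Without Ls174 control 1, TRIB3 had 1.41 (adjusted p = 8.35e-05), while without Ls174 HME 2 its adjusted p was 0.432.

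Among transcription factors and cofactors of the fasting liver, 1 of 15 tested genes rose and 1 fell in HepG2 cells, and 5 passed the unadjusted thresholds, with a list median of 0.12. SIRT1, a deacetylase that acts on PPARGC1A protein, rose from 8.63 ± 3.10 to 31.9 ± 8.17 CPM (log2 fold change 1.89, SE 0.39, adjusted p = 0.0303). CEBPA, a factor of mature hepatocytes, fell from 200 ± 107 to 40.4 ± 17.0 CPM (log2 fold change -2.33, SE 0.51, adjusted p = 0.04), with the highest control value, 320 CPM, in control 2. With 1 library left out, the call of SIRT1 was kept in 1 of 6 fits, that without control 2, and the call of CEBPA in 2, those without control 2 or control 3. The adjusted p reached 0.138 for SIRT1 without HME 3 and 0.155 for CEBPA without HME 1, and SIRT1 had 0.0556 with library size only. CEBPB, its relative, had a log2 fold change of 1.69 (adjusted p = 0.0588), or 1.59 (adjusted p = 0.0424) without HepG2 control 2. Its adjusted p reached 0.191 without HepG2 HME 1. In Ls174 cells 0 of 15 passed either threshold.

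Of the other targets induced by fasting, 2 of 8 tested genes rose in HepG2 cells and 0 fell by adjusted p. They were GADD45A, a stress gene that FOXO factors and p53 activate, at 2.65 (SE 0.57, adjusted p = 0.0358) and CPT1A, the gate of mitochondrial fatty acid oxidation, at 1.54 (SE 0.35, adjusted p = 0.0493). Each kept its call in 1 of the 6 fits that left out 1 library, that without control 2, and the adjusted p reached 0.128 for GADD45A and 0.174 for CPT1A without HME 3. With library size only it was 0.0546 and 0.0838, and CPT1A was above 0.05 in 3 other settings too, up to 0.0795 with the replicate number as a block. At the unadjusted thresholds 3 of the 8 passed, among them APOA5, an apolipoprotein of triglyceride transport, in the other direction at -0.96 (adjusted p = 0.0994, 0.0338 with DESeq2, 0.0485 without HepG2 control 2 and 0.305 without HepG2 HME 3). In Ls174 cells, of the 6 genes counted, 0 passed by edgeR's adjusted p and 3 passed the unadjusted thresholds. These were CPT1A with a log2 fold change of 1.20 (adjusted p = 0.105), ASNS, the asparagine synthetase, with 1.34 (adjusted p = 0.101) and GADD45A with 1.30 (adjusted p = 0.307). Without Ls174 control 1, CPT1A had 0.96 (adjusted p = 0.00413) and ASNS 1.78 (adjusted p = 1.47e-05). Without Ls174 HME 2 their adjusted p was 0.456 and 0.432. The list median was 0.39 in HepG2 and 0.74 in Ls174 cells, over 8 and 6 genes.

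Among the genes of opposing glycolytic control, PFKFB3 stood out in HepG2 cells. PFKFB3, a kinase and phosphatase that raises fructose-2,6-bisphosphate and so favours glycolysis, stood at 5.38, 4.98 and 6.06 CPM in HepG2 control 1, 2 and 3 and at 93.0, 115 and 150 CPM in HepG2 HME 1, 2 and 3. The groups are far apart, and the log2 fold change was 4.45 (SE 0.37, adjusted p = 0.00062). With any 1 library left out, the adjusted p was at most 0.00959. In Ls174 cells it stood at 75.7 to 81.6 CPM in control and 55.8 to 97.6 CPM in HME libraries, which overlapped. It was 1 of 10 tested genes of this list with an adjusted p under 0.05 in HepG2 cells, 4 passed the unadjusted thresholds, and 0 of 8 passed either in Ls174 cells. The list medians were 0.24 and 0.01.

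Of the other steps of gluconeogenesis, 0 of 12 tested genes passed by edgeR in either line. In HepG2 cells 3 passed the unadjusted thresholds: GOT1, the cytosolic aspartate aminotransferase, at 1.09 (adjusted p = 0.0791, 0.0147 without control 2 and 0.28 without HME 3), SLC37A4, the glucose-6-phosphate transporter, at -0.91 (adjusted p = 0.127, 0.046 without control 2 and 0.369 without HME 2) and GPD1, the glycerol-3-phosphate dehydrogenase, at -0.76 (adjusted p = 0.164) on the log2 scale. None of the 12 did in Ls174 cells, and the list medians were -0.28 and 0.14.

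Of the IGF-binding proteins and IGFs other than IGFBP1, 4 of 10 genes were tested in HepG2 cells and 0 passed either threshold, with a median of 0.20. In Ls174 cells 0 of 3 passed by adjusted p and all 3 passed the unadjusted thresholds: IGF2R at -1.44 (adjusted p = 0.125, 0.005 without control 1 and 0.529 without HME 2), IGFBP4 at -1.46 (adjusted p = 0.24) and IGF2 at 4.90 (SE 2.08, adjusted p = 0.359), whose sign turned without HME 2 (-0.25). Of the CREB3 family and the proteases that release it, 0 of 7 passed by adjusted p in either line, CREB3L2 had -0.82 (adjusted p = 0.218) in HepG2 cells, and MBTPS1 (-0.86, adjusted p = 0.221) and ATF6 (-0.66, adjusted p = 0.352) were past the unadjusted thresholds in Ls174 cells. The medians were -0.50 and -0.37.

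**Figure D4:**
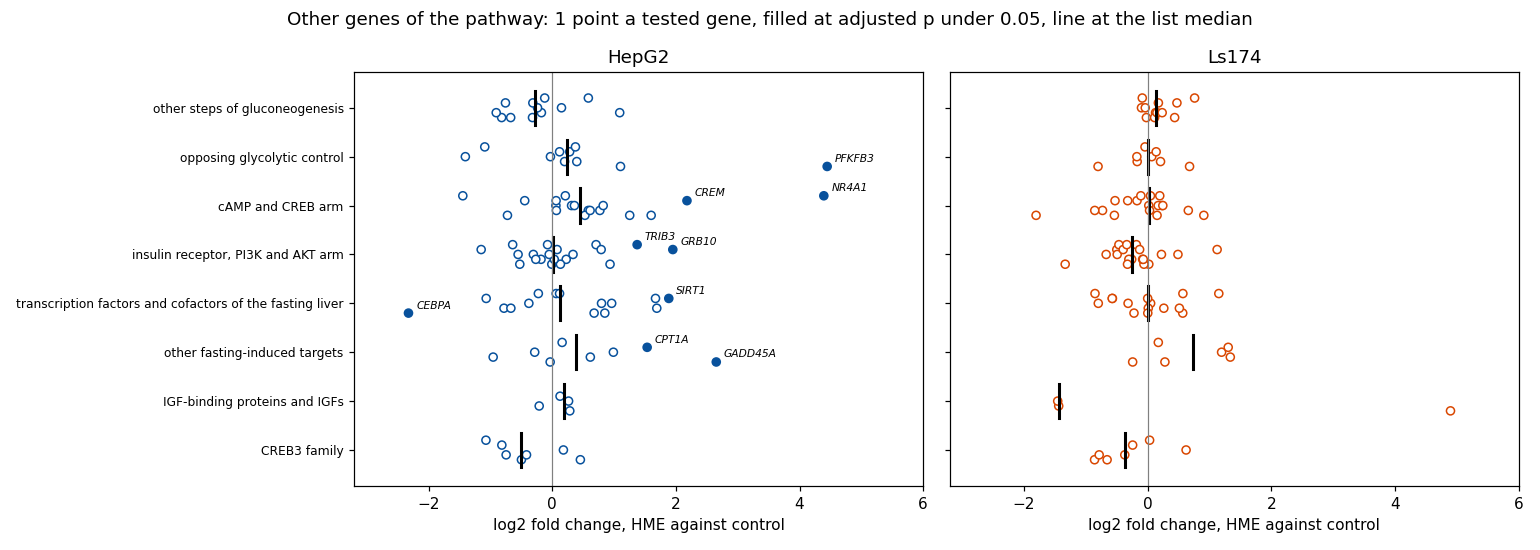
Log2 fold change of HME against control (x axis) of every tested gene of 8 lists (y axis) in HepG2 (left) and Ls174 cells (right), filled and named where the adjusted p was under 0.05, with a line at the list median. PFKFB3 (4.45) and NR4A1 (4.39) lie farthest to the right in HepG2 cells, and CEBPA (-2.33) farthest to the left.

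Between the untreated lines, several of these genes also differed by adjusted p, as did 35.5% of all 13040 tested genes. The counts of the insulin arm, the cAMP arm and the CREB3 family (1 higher and 1 lower of 7) were below that share, and no list was tested against it. HepG2 cells had higher levels of HNF4A, FOXA2, CEBPA, NR5A2, NR0B2, NR3C1, FOXO3 and TFEB and a lower level of SIRT1 among the transcription factors and cofactors, where 9 of 17 tested genes differed. INSR, GAB1 and PDPK1 were higher and GRB10 and INPPL1 lower in HepG2 cells in the insulin arm (5 of 19). ADCY9, PDE4D, PRKAR1A and PRKAR2A were higher and ADCY3, CRTC2 and NR4A2 lower in the cAMP arm (7 of 21). PC, MPC1, GPD1 and SLC37A4 were higher and LDHB and MDH2 lower among the steps of gluconeogenesis (6 of 13), and GCKR and PKLR higher and PFKFB3, PFKL and PDK3 lower among the opposing genes (5 of 10). Of fasting targets, APOA5, FGB, GADD45A and SESN1 were higher and CPT1A lower (5 of 8), and IGF2, IGFBP6 and CREB3L2 were higher and CREB3L4 lower in the last lists. Some of these genes had few or no counts in 1 line. Mean control levels were 0 CPM for APOA5 and 0.67 CPM for GCKR in Ls174 cells. In HepG2 cells they were 0 CPM for NR4A2, 0.40 CPM for LDHB and 0.22 CPM for ADCY3. Such genes can pass the filter through the other line alone, so nothing is read from these calls or counts.

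The genes whose log2 CPM most resembled that of PCK1 over the 12 libraries were PHLDA1 (Pearson r = 0.98), TSC22D3 (0.976), PHLDA2 (0.974), SEH1L (0.961) and C1orf63 (0.961). TSC22D3, a gene known to respond to glucocorticoids, stood at 1.87 to 2.69 CPM in HepG2 control, 13.1 to 18.6 in HepG2 HME, 17.2 to 21.5 in Ls174 control and 41.3 to 44.1 CPM in Ls174 HME libraries, the same order of groups as PCK1. The lowest correlations were those of PCYT2 (-0.975), GDPD5 (-0.972), ZYG11B (-0.955), MLXIPL (-0.952) and D2HGDH (-0.95). MLXIPL, the carbohydrate response factor ChREBP, stood at 107 to 252 CPM in HepG2 control and 14.6 to 25.1 CPM in Ls174 HME libraries. These coefficients describe 12 libraries in 4 groups that share a line or a treatment, and were chosen as extremes of 13040 genes.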

How the data were processed

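The authors made QuantSeq 3′ libraries, read them on an Ion Proton, aligned to hg19 with Hisat2 and obtained counts of reads per 3′ region through metaseqR2. The submitters' processing notes also name Bowtie2 and Trimmomatic. The deposited tables hold raw counts for 144910 regions a library, and region counts were added up for each gene. Tests used edgeR 4.0.16 in R 4.3.3, with TMM, the filterByExpr function given the groups, the quasi-likelihood F test and two-sided p-values adjusted after Benjamini-Hochberg. Each line was fitted with its 6 libraries, and the interaction and the untreated lines with all 12. Standard errors were computed from the F statistic. Library totals of 1790841 to 3656662 counts set the precision. The p-values set a difference against the spread between biological replicates. That spread comes from 1 line in the fits of 6 libraries and from both lines in the fits of all 12. DESeq2 1.42.0, other scalings, filters, fits and left-out libraries were the alternatives, and the procedure was tested on simulated data. Python 3.11.15 with scipy 1.17.1 gave the exact intervals. The study's methods give HME at another concentration than the labels, and how reads with several alignments were counted is not given in the sources used here. The members and lists were chosen with earlier results of these data known. All members were named, and of the lists every gene with an adjusted p under 0.05, otherwise at most 3 past the study's thresholds. 1 gene of the list of fasting-induced targets is not reported here and enters none of the counts or medians of that list. Promoters came from RefSeq.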

Additional observations from a re-analysis of the deposited data

Results flagged for a closer look

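For genes named in the report, the response to HME differed between the lines by the interaction test in PFKFB3 and NR4A1. Both stand in lists chosen with earlier results of these data known, so their p-values are not independent evidence. The log2 fold change of PFKFB3 was higher in HepG2 than in Ls174 cells by 4.47 (SE 0.42, edgeR adjusted p = 0.00019), higher in 3 of 3 HepG2 HME libraries than in any HepG2 control, and its adjusted p stayed at or under 0.00237 with any 1 of the 12 libraries left out. The log2 fold change of NR4A1 was higher in HepG2 than in Ls174 cells by 4.91 (SE 0.79, edgeR adjusted p = 0.0114). HepG2 HME libraries held 22.2, 21.9 and 58.9 CPM of NR4A1 against 0.623 to 2.15 CPM in HepG2 control, and Ls174 libraries held 4.10 to 5.28 CPM in control and 2.13 to 5.10 CPM with HME. The adjusted p of NR4A1 reached 0.0569 without Ls174 HME replicate 3 and was under 0.05 in 10 of the 12 fits that left out 1 library. Groups of 3 libraries are too small for a test of single outlying samples.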

How the results depend on the processing

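Depth limits G6PC and FBP1, with at most 16 counts a library, and, in 1 line each, IRS2 (at most 13), IGFBP1 (at most 5), CREB3L3 (at most 9) and PPARGC1A (at most 18). In HepG2 cells, the number of members with an adjusted p under 0.05 was 2, and 4 at the study's thresholds, with DESeq2 or with no filter beyond 1 count, where PCK1 and IGFBP1 were among them. The calls over all genes rose too, from 375 of 11343 to 2517 at the study's thresholds. They were 917 of 24382 with DESeq2 and 1407 of 24458 with no filter. In Ls174 cells it was 1, 3 at the study's thresholds, with DESeq2, with no filter or with edgeR's exact test, and 0 with library size only or with the most used region of each member only (adjusted p of PCK2 0.0635 and 0.054, with 3 members at an unadjusted p under 0.05), and 0 to 3 when 1 library was left out. Over all genes it was 134 of 11319, and 1353 at the study's thresholds. DESeq2 gave 376 of 22552, no filter 604 of 22568 and the exact test 474 of 11319. Library size only gave 137, the most used region 133, and leaving out 1 library 0 to 979. For the interaction it was 0, 5 at the study's thresholds, 4 with DESeq2, 4 with no filter, 0 to 1 with 1 library left out and 4 without both control libraries that stood apart. Over all genes it was 84 of 13040, and 1718 at the study's thresholds. DESeq2 gave 368 of 27235, no filter 367 of 27326 and leaving out 1 library 17 to 143. Without both control libraries it was 433 of 13327. Between the untreated lines it was 5, 1 with at least 10 counts in each group (5 members tested), 3 with only the 6 control libraries and 4 to 6 with 1 library left out. Over all genes it was 4631 of 13040, 2699 of 11330 with at least 10 counts in each group and 2798 of 11907 with only the control libraries. Leaving out 1 library gave 3973 to 5058. Scaling by library size alone moved the median log2 fold change of all HepG2 genes from -0.04 to -0.20. It turned PCK2 in HepG2 to -0.065 and the interaction of FOXO1 to -0.024. With 1 library left out, PCK2 in HepG2 ranged from -0.25 to 0.51, IRS1 in HepG2 from -0.024 to 0.40, PPARGC1A in the interaction from -0.43 to 1.13, FOXO1 in the interaction from -0.26 to 0.55, FOXO1 between the untreated lines from -0.22 to 0.58, IGF2 in Ls174 from -0.25 to 12.02 and IGF2 in the interaction from -11.68 to 0.56. Without both control libraries FOXO1 in the interaction was -0.18. None of these reversed values had an adjusted p under 0.05, and the cause was not tested.

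The labels do not say whether same-numbered libraries were paired, and 3 correlations a line cannot decide it. The deviations of same-numbered control and HME libraries from their group means had correlations of -0.15, 0.07 and -0.12 in HepG2 and -0.04, 0.006 and -0.06 in Ls174 cells. Those of differently numbered libraries ran from -0.15 to 0.26 in HepG2 and from -0.06 to 0.07 in Ls174 cells. With the replicate number as a block, 2 members were called in HepG2 cells, 0 in Ls174 cells (adjusted p of PCK2 0.153), 0 for the interaction and 4 between the untreated lines. Over all genes the block left 349 calls in HepG2 and 0 in Ls174 cells, where 1133 genes passed the study's thresholds. It left 37 calls for the interaction and 4152 between the untreated lines.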
